A study of Homo sapiens with 21 samples.

Results

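The genes described here are *NFE2L2*, which encodes the transcription factor NRF2, 6 genes that NRF2 is known to switch on (*NQO1*, *HMOX1*, *GCLC*, *GCLM*, *TXNRD1* and *SRXN1*), the lipid peroxide reductase *GPX4*, the methionine sulfoxide reductase *MSRB3* and the NADPH oxidase *NOX4*. They were taken by symbol from the deposited expression table, and 10 of the 23201 genes listed there are these. The RNA came from HMLE, a cell line made by immortalizing human mammary epithelial cells, sampled before treatment (d0) and after 1, 4, 7, 10, 15 and 20 days of TGFβ, a cytokine that drives epithelial to mesenchymal transition (EMT), to follow transcription during that change. Each of the 7 timepoints had 3 libraries, all from the same line with no other agent named, and each library held between 18847917 and 22667754 reads. Untreated cells were sequenced at d0 only, so days in culture and days of TGFβ cannot be told apart, and in bulk RNA fewer cells that express a gene and less RNA per cell cannot be told apart either. A value below is a normalised read count, that is, reads divided by a size factor for the library.

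NRF2 is held in the cytoplasm and sent for degradation by KEAP1, and oxidants or electrophiles that modify KEAP1 let NRF2 build up, pair with a small MAF protein and bind antioxidant response elements. Its targets make glutathione, rebuild reduced thioredoxin, remove quinones and break down haem, while BACH1 and BACH2 compete for the same elements and repress them. NOX4 makes hydrogen peroxide and is known as a TGFβ target in fibroblasts and several epithelia.

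The stretch before the transcription start is shown for both subunits of glutamate-cysteine ligase, *GCLC* and *GCLM*, whose RNA moved apart, and for *TXNRD1*, the other member that holds the core letters of the antioxidant response element. These reference sequences come from RefSeq (GRCh38.p14), are written 5′ to 3′ on the strand of the gene, and are not read from the libraries. In the *GCLM* stretch, 1 base lies in an annotated untranslated region. Capitals mark the letters TGACNNNGC on either strand, so that a match on the opposite strand reads GCNNNGTCA.
*GCLM*, chr1:93909456-93909575, minus strand, ending 26 bases before the start: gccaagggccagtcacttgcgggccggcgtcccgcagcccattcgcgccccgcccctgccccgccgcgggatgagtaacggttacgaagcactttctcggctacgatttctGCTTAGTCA
*GCLC*, chr6:53545130-53545249, minus strand, ending 29 bases before the start: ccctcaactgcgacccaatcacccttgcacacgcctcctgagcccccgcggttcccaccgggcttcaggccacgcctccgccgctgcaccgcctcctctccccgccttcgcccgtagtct
*TXNRD1*, chr12:104215634-104215753, plus strand, ending 26 bases before the start: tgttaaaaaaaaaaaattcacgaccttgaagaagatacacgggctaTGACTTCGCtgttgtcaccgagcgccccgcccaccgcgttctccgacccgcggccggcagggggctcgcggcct

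The match began 34 bases before the start in *GCLM*, on the opposite strand, and 99 bases before it in *TXNRD1*. Within 250 bases before the start, 9 of the 10 genes had an entry (*HMOX1* had none), and several had more than one start. Of the 16 entries of these genes 3 held the letters, 1 of *GCLM* and 2 of *TXNRD1*, beside 10.9% of all 35116 promoter entries. Counted by gene, that is 2 of 9, beside 13.2% of the 27305 genes in the table with at least 1 such entry. A match is a description of the letters and not evidence of binding, and the absence of one in *GCLC*, *NQO1* or *SRXN1* says only that the letters do not occur in that window.

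Pairs of libraries from the same timepoint had a root mean square log2 difference between 0.214 and 0.243 in the 18 pairs outside d7. The first and second d7 libraries were as close (0.223), whereas those 2 lay 0.472 and 0.457 away from the third. The third d7 library therefore stood apart, and several d7 results are given with and without it. Of 10 genes known to respond to TGFβ, 10 were higher than at d0 on each of the 6 days. Over all genes tested, 14.3% were higher on all 6. The part of days in culture in these increases was not tested. Of 10 mammary epithelial markers, all of which were tested, 1 to 6 were higher and 2 to 6 lower on each day, the 6 higher being at d15, and 7 were higher at d7 without the third library. *EPCAM*, an epithelial adhesion molecule, fell on all 6 days, by 2.83 on the log2 scale at d7, whereas *ITGA6*, an integrin of basal epithelial cells, rose on all 6, by 1.56 at d10. The basal keratin *KRT14* was higher on 5 days, all of which turned to lower under quantile normalization, and *TP63*, a transcription factor of basal cells, was higher on 4, of which d1 turned with equal totals and with quantile normalization, and lower on 2. *KRT5*, another basal keratin, was lower on 5 days, from a mean of 224349 at d0 to 101276 at d10 (-1.15 on the log2 scale), though it was the most abundant marker of that list on every day but d15. *CDH1*, which encodes E-cadherin, and the keratin *KRT18* were lower on 4 days each. Of 8 leukocyte markers, 5, including *PTPRC*, were at or under 3 reads in every library. Of the 3 that were tested, *CSF1R* was higher on all 6 days, from a mean of 269.8 at d0 to 1259.8 at d7. *CD14* was lower on all 6, from 46.4 at d0 to 7.17 at d20 (-2.90 on the log2 scale). In the d20 libraries *CD14* was 11.7, 1.05 and 8.81, the second under 3 reads, so the size of that change is uncertain. *LYZ* was called on no day. Of 3 endothelial markers tested, *PECAM1* was lower on all 6 days, from 41.3 at d0 to 9.06 at d15, *TEK* was higher on 5, from 1.43 at d0 to 20.7 at d20, and *KDR* was higher at d7 and d15 and lower at d1, d10 and d20. In the d7 libraries *KDR* was 229.0, 197.0 and 43.7, the third of which overlapped with d0. Of 4 adipocyte markers *FABP4* alone passed the filter, and it was higher on all 6 days. In the d7 libraries *FABP4* was 227.9, 254.4 and 59.6. *LEP* had 0 to 3 reads in every library, *ADIPOQ* lay between means of 3.73 at d7 and 10.9 at d15, and *PLIN1* was at a mean of 5.92 at d0 and 25.1 at d15. The summed value of the leukocyte list, mostly *CSF1R*, went from a mean of 335 at d0 to 1483, 1366 and 1010 in the d7 libraries. That of the endothelial list went from 93.2 at d0, where *KDR* (42.1) and *PECAM1* (41.3) were about equal, to 283 at d15, where *KDR* made up 263, and was led by *TEK* or *PECAM1* at d1, d10 and d20. That of the adipocyte list, of which *FABP4* made up 12.1 of 24.7 at d0 and 180.6 of 192.9 at d7, was 240.6, 271 and 67.0 in the d7 libraries, so that the third d7 library had the lowest of the d7 values in all 3 lists. The part of these markers in the results below was not tested.

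The members did not move as one group. *HMOX1* and *MSRB3* were higher than at d0 on all 6 days and *GCLC* was lower on all 6, while *GCLM*, *GPX4* and *SRXN1* were higher on some days and lower on others. *NFE2L2* itself was never higher than at d0, and *NOX4* stayed at 1 to 7 reads per library throughout. Over all genes tested, 14.3% were higher on all 6 days, 8.26% lower on all 6 and 28.7% higher on one day and lower on another.

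Days were compared with d0 by limma on log2(value + 1), with Benjamini-Hochberg adjustment across the 13343 genes that had a mean value of at least 10, a filter that 9 of the 10 members passed. A gene was called at an adjusted p under 0.05, and with these libraries many genes were. At d1, 3 members were higher and 6 lower, where 31.3% and 28.5% of all genes tested were. At d4, 3 were higher and 5 lower, beside 36.9% and 35.3% of all genes. At d7, 3 were higher and 4 lower, both with and without the third d7 library, beside 34.6% and 32.6% of all genes with it and 36.8% and 34.3% without it. At d10, 3 were higher and 5 lower, beside 37.0% and 30.7%. At d15, 4 were higher and 5 lower, beside 39.2% and 37.3%. At d20, 4 were higher and 2 lower, beside 32.5% and 30.2%. The counts of the gene lists below can be read against the same shares. With each library scaled to the same total the shares of all genes moved as well. The members were then 3 higher and 6 lower at d1 (18.2% and 50.1% of all genes), 3 and 6 at d4 (25.8% and 49.5%) and 2 and 6 at d7 (22.7% and 49.1%). At d10 they were 2 and 6 (21.4% and 50.5%), at d15 3 and 5 (30.3% and 47.2%) and at d20 2 and 3 (19.9% and 50.8%). At d7 *GPX4* lost its call under that scaling, while *NFE2L2* and *SRXN1* gained one. When at least a 2-fold change was also asked for, *MSRB3* remained higher on all 6 days and *HMOX1* at d1, d10 and d20, and *GCLC* remained lower at d1 and d10. By that rule 6.47%, 9.68%, 8.79%, 6.94%, 11.7% and 7.51% of all genes were higher at d1, d4, d7, d10, d15 and d20, and 3.87%, 5.03%, 2.93%, 7.34%, 8.66% and 4.72% were lower. Without the fold minimum or that scaling the counts of higher members were near the share of all genes on each day. The lower ones were above their share from d1 to d15, by a few genes at most and by the most at d1. The counts alone therefore say little, and the size and timing of each gene's change are described next.

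**Figure D1:**
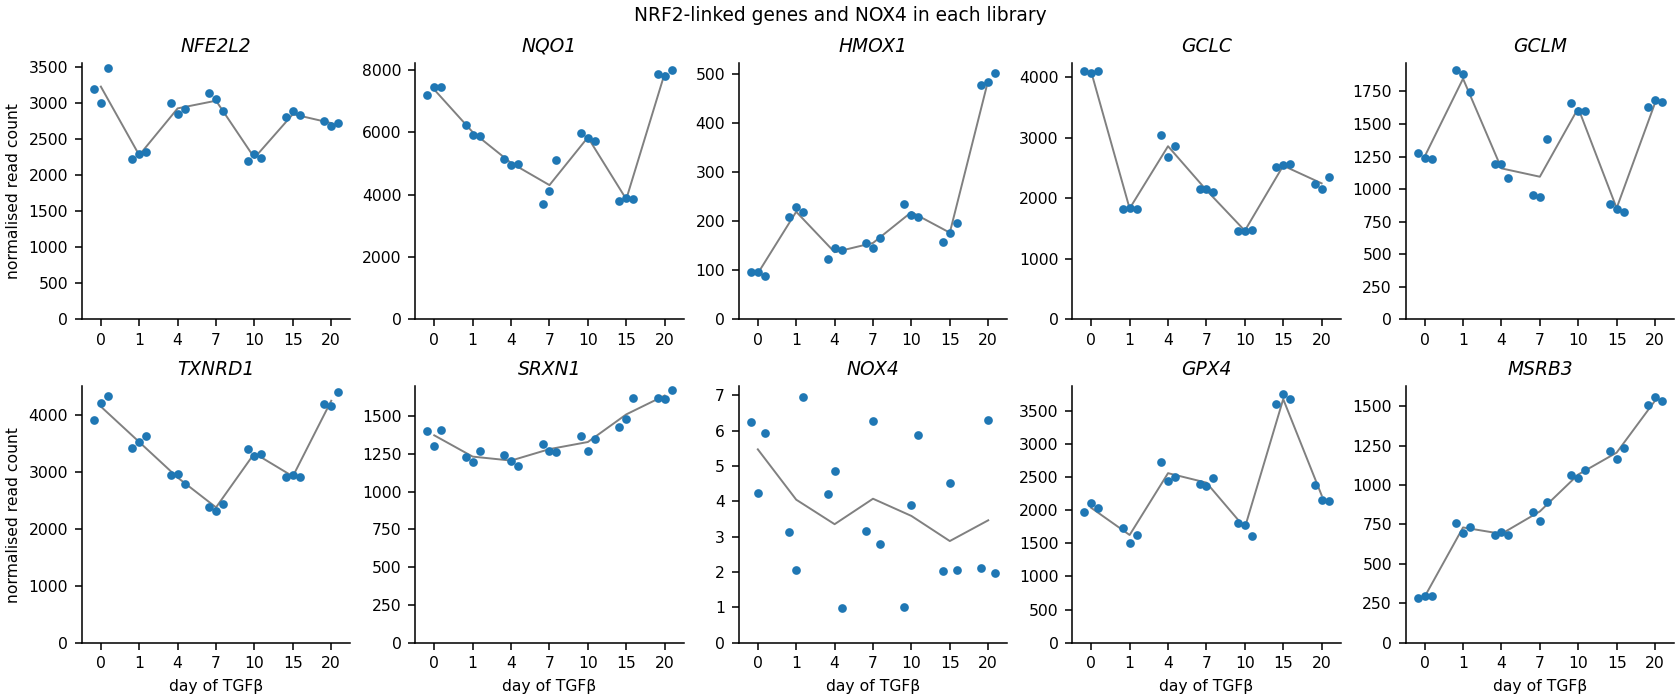
Normalised read count of the 10 genes in each of the 21 libraries (points, 3 per timepoint) with the timepoint mean (line), against day of TGFβ (0 is untreated; days are evenly spaced and not to scale). *MSRB3* climbs to d20, *GCLC* lies below d0 on every treated day, *HMOX1* is highest at d20 and *NOX4* stays below 7.

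**Figure D2:**
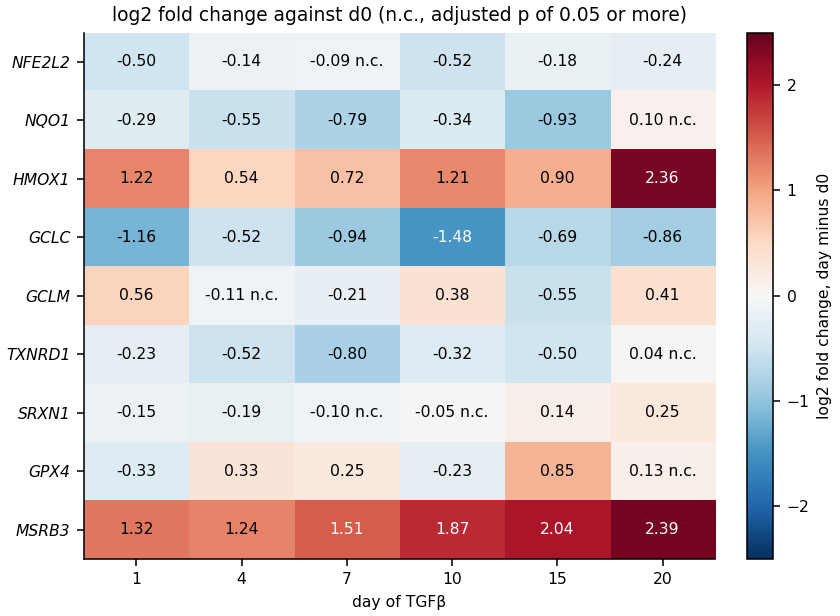
Log2 fold change against d0 from limma for the 9 members tested (rows) on the 6 treated days (columns), red for higher and blue for lower. Cells marked n.c. did not pass an adjusted p of 0.05; *GCLM* changes sign between d1 and d15 and *GPX4* runs the other way.

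*NFE2L2* was 3199, 3003 and 3493 at d0, 2221, 2300.4 and 2320.2 at d1 and 2201, 2291 and 2236 at d10. All libraries of d1 and d10 lay below all of d0, and d1 and d10 overlapped with each other. Its log2 fold change was -0.50 at d1 (standard error 0.04, adjusted p = 3.13e-09, limma) and -0.52 at d10 (adjusted p = 1.06e-09). At d7 the value was 3150.1, 3063 and 2896, and the difference from d0 did not pass the test (-0.09, adjusted p = 0.0843). That difference passed with equal totals (-0.28, adjusted p = 4.85e-06), with quantile normalization (-0.16, adjusted p = 0.00438), with edgeR on the reads (-0.11, adjusted p = 0.0336) and when the second d0 (-0.14, adjusted p = 0.00909) or the first d7 library (-0.12, adjusted p = 0.0427) was left out. At d4, d15 and d20 it was lower by between 0.14 and 0.24 on the log2 scale. The call at d4 (-0.14, adjusted p = 0.00805) did not pass without the third d0 library, the highest of d0 (-0.08, adjusted p = 0.0883). In the order of its means, d0, d7, d4, d15 and d20 followed each other without a difference between neighbours that passed the test, and d1 and d10 lay below them.

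The genes that act on NRF2 or work beside it did not move as one group either. Of 14 control genes, all of which were tested, between 7 at d1 and 11 at d20 were higher than at d0, and 2 to 4 were lower, with a median log2 fold change between 0.19 and 0.47 where the median of all genes was at most 0.03. Those values hold for the deposited scaling. With equal totals the median of all genes tested lay between -0.20 and -0.14, and small increases shrank with it. By the deposited scaling, 6 of these 14 genes were higher on all 6 days and 8 were higher on some days and lower on others. *NFE2L1*, a relative of *NFE2L2*, and the coactivator *CREBBP* were among those lower at d1 (-0.25 and -0.32) and d10 (-0.21 and -0.13), the days on which *NFE2L2* was lowest. *KEAP1*, the adaptor that marks NRF2 for degradation, was 1465, 1524 and 1535 at d0, and it was lower at d1 (-0.13, adjusted p = 0.0289, limma) and higher at d20 (0.19, adjusted p = 0.00243), with none of the other days passing the test. Scaling each library to the same total brought the d20 value of *KEAP1* to -0.01.

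With the deposited scaling the repressors and small MAF partners were higher on all 6 days. The smallest increase of *BACH1* was 0.29 at d10, where equal totals moved the median of all genes from 0.03 to -0.20. Increases of that size shrink under equal totals. *BACH1* was 1331, 1240.0 and 1383 at d0 and 2222, 2315 and 2124 at d4, its highest day, where the groups did not overlap (log2 fold change 0.75, adjusted p = 9.43e-11, limma). *BACH2* rose from a mean of 80.6 at d0 to 270.1 at d15, by 1.74 on the log2 scale. *MAFF*, a small MAF that lacks an activation domain of its own, rose from 205 at d0 to 679 at d4, by 1.74 (adjusted p = 2.93e-11, limma). *MAFK* was highest at d15 (0.96), as was *MAFG* (0.81). *NFE2L3*, a further relative, was higher at d1, d10 and d20 and lower at d7 and d15, with -0.92 at d15 (adjusted p = 1.47e-07, limma).

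Glutamate-cysteine ligase makes the first and rate-limiting bond of glutathione, with *GCLC* encoding the catalytic and *GCLM* the modifier subunit. *GCLC* was 4098, 4061 and 4099 at d0, and its highest treated library was 3039 at d4, so no treated library reached an untreated one. It was 1823, 1841 and 1832 at d1 and 1459.9, 1468 and 1469.7 at d10, the lowest timepoint. That is a log2 fold change of -1.16 at d1 (standard error 0.04, adjusted p = 2.34e-16, limma) and -1.48 at d10 (adjusted p = 2.52e-18), or 2.23 and 2.79 times lower. On the other days it was lower by between 0.52 at d4 and 0.94 at d7. Every step in the order d0, d4, d15, d20, d7, d1, d10 passed the test except the one from d20 to d7 (adjusted p = 0.108).

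*GCLM* did not follow its partner. It was 1281, 1236 and 1235 at d0, 1913, 1885 and 1747 at d1, 1665, 1600.4 and 1602 at d10 and 1634, 1683 and 1669 at d20. All libraries of d1, d10 and d20 lay above all of d0, with log2 fold changes of 0.56 (standard error 0.09, adjusted p = 1.95e-05, limma), 0.38 (adjusted p = 0.00106) and 0.41 (adjusted p = 0.000539). At d15 it was 885, 850.2 and 829, below every other timepoint, and 0.55 lower than at d0 on the log2 scale. The third d7 library had 1389 where the others had 955 and 944. With all 3 libraries the change at d7 was -0.21 (adjusted p = 0.0438), and without the third it was -0.40 (adjusted p = 7.46e-10). When either of the other 2 d7 libraries was left out instead, the d7 change was -0.12 or -0.13 and did not pass the test, and it did not pass without any one of the d0 libraries either (adjusted p between 0.0714 and 0.109). The d7 call was also lost when only d0 and d7 entered the fit (-0.21, adjusted p = 0.229), with DESeq2 on the reads (-0.19, adjusted p = 0.0736) and without the filter on low values (-0.21, adjusted p = 0.0537). With equal library totals the difference at d4 passed (-0.31, adjusted p = 0.00582), as it did when only d0 and d4 entered the fit (-0.11, adjusted p = 0.033), and the increases at d10 and d20 were 0.15 (adjusted p = 0.162) and 0.21 (adjusted p = 0.0511), while those at d1 and the decrease at d15 passed.

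The ratio of the value of *GCLC* to that of *GCLM* within a library removes the library scaling, and since transcript lengths are not divided out only its change between timepoints can be read. It was 3.20, 3.29 and 3.32 at d0, 0.953, 0.977 and 1.05 at d1, and 0.877, 0.917 and 0.918 at d10. At d4 it was 2.54, 2.25 and 2.63, at d7 2.26, 2.28 and 1.51, at d15 2.84, 2.99 and 3.09 and at d20 1.37, 1.28 and 1.41. The ratio lay below all untreated libraries in all 18 treated ones, and the mean fell from 3.27 ± 0.06 (SD, n = 3) to 0.904 ± 0.023 (SD, n = 3) at d10, returned to 2.97 ± 0.12 at d15 and was 1.35 ± 0.07 at d20. The two-sided exact permutation p against d0 was 0.1 on each day, the smallest that 3 libraries against 3 allow.

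**Figure D3:**
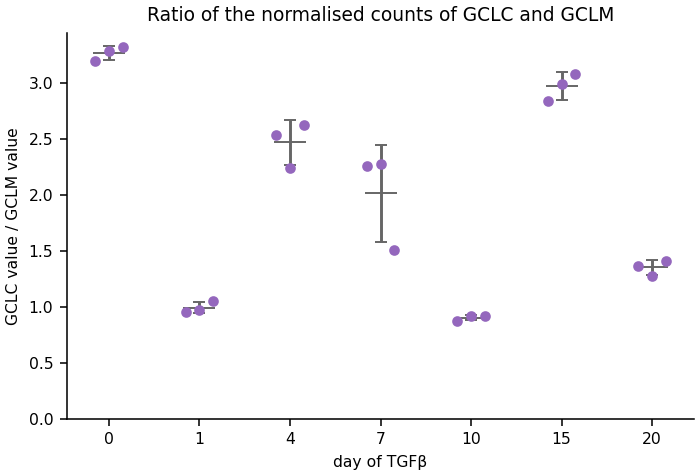
Ratio of the normalised read count of *GCLC* to that of *GCLM* in each library (points), with the mean and SD of 3 libraries (bars), against day of TGFβ (evenly spaced). The ratio is near 3.27 at d0 and near 0.904 at d10, and the third d7 library lies at 1.51, below the other 2.

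Of 15 other genes for the synthesis and use of glutathione that were tested, 8 to 10 were lower and 1 to 5 higher on each day, with a median log2 fold change between -0.36 at d10 and -0.09 at d20. *GSR*, which returns oxidized glutathione to its reduced form, was 1782, 1726 and 1823 at d0 and 670.1, 619 and 692 at d7, and was lower on all 6 days by between 0.77 and 1.43 on the log2 scale. *GSS*, which completes glutathione, was lower on all 6 days by at most 0.28, and at d7 its change was -0.32 without the third library. *SLC7A11*, the cystine importer, was lower from d1 to d15, most at d4 (-1.13, adjusted p = 2.79e-09, limma), and higher at d20 (0.43, adjusted p = 0.00107). At d7 it was 1789, 1824 and 2788, again with the third library apart, and its change was -0.92 with that library and -1.13 without it. *GSTA4*, a transferase for products of lipid peroxidation, fell from 499.8 at d0 to 177 at d10, by 1.49 on the log2 scale. *GGT1*, which cleaves glutathione outside the cell, was higher at d7 (0.77) and d15 (1.53). It was lower at d10 (-1.13), where its libraries overlapped with those of d0.

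*NQO1* reduces quinones in a step that avoids radical intermediates and is the gene most often used as an NRF2 readout. It was 7211, 7437 and 7461 at d0, 5129, 4953 and 4976 at d4, 3799, 3899 and 3873 at d15 and 7863, 7795 and 8002 at d20. It was lower on 5 of the 6 days, and at d15, with no overlap, the log2 fold change was -0.93 (standard error 0.07, adjusted p = 3.72e-11, limma). At d7 it was 3708, 4118 and 5098, a change of -0.79 with all libraries and -0.92 without the third. All 3 d20 libraries lay above those of d0, but the difference of 0.10 did not pass the test (adjusted p = 0.21). It passed when only these 2 groups entered the fit (0.10, adjusted p = 0.0047, limma), and with equal totals it was -0.10.

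*TXNRD1* and *SRXN1* keep thioredoxin and peroxiredoxins reduced. *TXNRD1* was 3916, 4205 and 4327 at d0, fell to 2382, 2323 and 2429 at d7 and was 4191, 4163 and 4399 at d20. The third d7 library did not stand apart for this gene, and the change at d7 was -0.80 (standard error 0.04, adjusted p = 9.61e-14, limma) with it and -0.82 without it. The d0 and d20 libraries overlapped, and the d20 difference of 0.04 (adjusted p = 0.431) was -0.16 with equal totals (adjusted p = 0.000604). The order of its means was d20, d0, d1, d10, d15, d4 and d7, with no difference past the test between d20 and d0, d1 and d10, or d15 and d4.

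*SRXN1*, sulfiredoxin, moved least of the targets. It was 1403, 1303 and 1409.9 at d0, 1239.9, 1205 and 1171 at d4 and 1619.6, 1616 and 1671 at d20. Its d4 libraries lay below and its d20 libraries above those of d0, by -0.19 (adjusted p = 0.00139, limma) and 0.25 (adjusted p = 8.28e-05) on the log2 scale. The increase of 0.14 at d15 (adjusted p = 0.0121) did not pass without the second d0 library (0.10, adjusted p = 0.0813) or without the third d15 library (0.08, adjusted p = 0.112), and with equal totals it was -0.02. With equal totals the d20 increase was 0.05 (adjusted p = 0.316), and the differences at d7 and d10, which had not passed, were -0.29 (adjusted p = 1.34e-05) and -0.27 (adjusted p = 2.72e-05). Both also passed with quantile normalization (-0.14 with adjusted p = 0.0106 and -0.17 with adjusted p = 0.00392), and that at d7 with edgeR on the reads (-0.12, adjusted p = 0.0285) and without the second d0 library (-0.14, adjusted p = 0.0263).

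At d1, 5 of 15 other thioredoxin and peroxiredoxin genes rose and 5 fell, near the 31.3% and 28.5% of all genes. At both d10 and d20 7 rose and 5 fell, beside 37.0% and 30.7% of all genes at d10 and 32.5% and 30.2% at d20. At d4, d7 and d15, 10 were lower on each day, beside 35.3%, 32.6% and 37.3% of all genes, and 3, 2 and 2 were higher. The median log2 fold change of the list lay between -0.44 at d15 and 0.15 at d20. *PRDX1*, an abundant peroxiredoxin and NRF2 target with processed pseudogenes that can share its reads, was 9846, 9975 and 10362 at d0 and 3150.1, 3141 and 3182 at d15, where it fell by 1.67 on the log2 scale (adjusted p = 1.5e-17, limma). *TXN*, thioredoxin, fell by 0.89 at d15. At d1, d10 and d20 both were higher than at d0 by at most 0.26, and with equal totals *PRDX1* turned to between -0.05 and -0.01 on these days and *TXN* to -0.04 at d20. *TXNIP*, which binds thioredoxin and is also induced by glucose, was 1956, 1306 and 1186 at d0, 502, 502 and 552 at d10 and 15025, 15294 and 14824 at d15. Its log2 fold change was 3.38 at d15 (standard error 0.30, adjusted p = 1.62e-09, limma) and -1.48 at d10 (adjusted p = 0.0002), and at d7 it was 6970.3 and 6842 in the first and second libraries and 1803 in the third, a change of 1.61 with the third and 2.25 without it.

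The wider set of 28 further NRF2 targets, which shares *GSR*, *SLC7A11*, *PRDX1* and *TXN* with the lists above, had 16 to 22 genes lower and 4 to 8 higher from d1 to d15, and 9 lower and 11 higher at d20. Its median log2 fold change lay between -0.42 and -0.28 from d1 to d15 and was -0.03 at d20. These counts and medians hold for the deposited scaling. With equal totals 19.9% of all genes were higher and 50.8% lower at d20, and *PRDX1* (-0.05) and *TXN* (-0.04) changed sign there. Lower on all 6 days were 8 of them, *AKR1B10*, *ALDH3A1*, *CBR1*, *EPHX1*, *GPX2*, *GSR*, *PGD* and *PIR*, and higher on all 6 was 1, *UGDH*, which makes UDP-glucuronate. *GPX2*, a glutathione peroxidase of epithelia, fell from a mean of 152 at d0 to 10.97 at d4 (-3.69 on the log2 scale, adjusted p = 9.92e-11, limma). *ALDH3A1*, which oxidizes aldehydes, fell from 195 at d0 to 23.9 at d10 (-2.99), and *AKR1B10*, an aldo-keto reductase with a close paralog that can share its reads, from 109.9 at d0 to 10.3 at d1 (-3.40).

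*HMOX1* opens the haem ring and releases iron, carbon monoxide and biliverdin, and it is repressed by BACH1 as well as induced by NRF2. It was 97.0, 96.7 and 88.1 at d0, 209, 229.7 and 219 at d1, 235, 212 and 209 at d10 and 477, 483 and 501 at d20. No treated library overlapped with d0, and the lowest, 124, was at d4. The increase was 2.34-fold at d1 (log2 fold change 1.22, adjusted p = 1.44e-10, limma) and 5.19-fold at d20 (2.36, standard error 0.09, adjusted p = 1.18e-15). Between these it was smaller, 0.54 at d4, 0.72 at d7 and 0.90 at d15 on the log2 scale. The differences of d1 from d10 (0.01, adjusted p = 0.969), d15 from d7 (adjusted p = 0.0974) and d7 from d4 (adjusted p = 0.0876) did not pass the test, and d20 stood 1.15 above d1 (adjusted p = 1.7e-09). These are low values, at 89 to 114 reads per library at d0.

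Of 9 other genes of haem breakdown and iron that were tested, 3 to 6 were lower and 0 to 4 higher on each day. *HMOX2*, the constitutive haem oxygenase, was higher at d1 (0.88), d7 (0.15), d10 (0.84) and d20 (0.50) and lower at d15 (-0.31), and with equal totals its d7 value was -0.04. *FTH1* and *FTL*, the ferritin chains, both have many processed pseudogenes that can share their reads. Both were lower at d1 and d10 and higher at d15. *FTL* was also higher at d20, at 13516, 13225 and 13837 beside 9859, 10505 and 9934 at d0. Over the 6 days *FTH1* was lower on 4 and higher on 1, and *FTL* was lower on 3 and higher on 2. For *FTH1* the changes were -0.85 at d1, -1.16 at d10 (adjusted p = 2.25e-13, limma) and 0.15 at d15, the last turning to -0.01 with equal totals. *FECH*, the last enzyme of haem synthesis, was lower on all 6 days, most at d4 (-1.25), and *SLC48A1*, a haem transporter, was lower on all 6 days, most at d15 (-1.09).

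*GPX4* reduces lipid hydroperoxides within membranes and is the main brake on ferroptosis, an iron-dependent cell death. It was 1967, 2100.1 and 2036 at d0, 1735, 1512 and 1629 at d1, 1807, 1783 and 1612 at d10 and 3593, 3753 and 3675 at d15. The d1 and d10 libraries lay below d0, and those of d15 above every other library. The log2 fold change was -0.33 at d1 (adjusted p = 3.43e-05, limma), -0.23 at d10 (adjusted p = 0.000919) and 0.85 at d15 (standard error 0.06, adjusted p = 7.38e-12). It was also higher at d4 (0.33) and d7 (0.25), the last at 0.06 with equal totals (adjusted p = 0.374). At d20 the difference of 0.13 missed the threshold (adjusted p = 0.0512) and passed when the second d0, the second d20 or the third d20 library was left out, with 0.15 in each case, and when only the d0 and d20 libraries entered the fit (0.13, adjusted p = 0.0089, limma). With equal totals the d20 difference was -0.07.

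Of 12 other ferroptosis genes tested, 5 to 8 were lower on each day, the 8 being at d7 without the third library, and 1 to 4 higher. *TFRC*, which imports iron with transferrin, was 3976, 4116 and 4418 at d0 and 1930.1, 2035 and 1942 at d7, and was lower on all 6 days, most at d7 (-1.08, adjusted p = 6.25e-15, limma). *GCH1*, which starts the synthesis of the antioxidant tetrahydrobiopterin, was lower on all 6 days as well, most at d7 (-1.72). *AIFM2*, which keeps ubiquinone reduced, was lower at d4 (-1.42), d7 (-1.04, or -1.23 without the third library) and d15 (-1.08) and higher at d20 (0.38, adjusted p = 0.00504, limma). *SLC3A2*, the partner chain of the cystine importer, was lower on all 6 days by between 0.42 and 0.73.

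Of the other enzymes that remove superoxide or peroxide, 8 were tested. *CAT*, catalase, was lower on all 6 days, most at d15 (-1.11), as was *GPX2*, and *GPX7* and *GPX8*, peroxidases of the endoplasmic reticulum, were higher on all 6, although with equal totals *GPX8* was -0.03 at d1 and -0.05 at d7, and without the third d7 library the change of *GPX8* at d7 was 0.08 and did not pass (adjusted p = 0.177, limma). *SOD2*, the mitochondrial superoxide dismutase, was 2.38 higher on the log2 scale at d15 than at d10, being 1.41 above d0 at d15 and 0.97 below it at d10. *GPX3*, a secreted glutathione peroxidase, was at a mean of 9.06 at d0 and 23.7 at d7.

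*MSRB3* reduces oxidized methionine in proteins of the endoplasmic reticulum and mitochondria, and it is not counted among the classical NRF2 targets. It was 282, 299 and 294 at d0, 759, 697 and 736 at d1, 1061, 1042 and 1097 at d10 and 1508, 1561 and 1534 at d20. The treated libraries did not overlap with d0, and the values climbed over the time course, except that d4 (686, 700.1 and 685) overlapped with d1. The log2 fold change grew from 1.32 at d1 (standard error 0.05, adjusted p = 1.45e-15, limma) through 1.87 at d10 to 2.39 at d20 (adjusted p = 3.53e-20), or 5.26-fold. Between d4 and d20 each step to the next timepoint passed the test, with adjusted p-values of 0.00278 or less, and d1 and d4 did not differ past it (adjusted p = 0.155).

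The other methionine sulfoxide reductases did not show that climb. *SEPX1*, the older symbol of *MSRB1*, was lower on 5 days, most at d4 (-0.87, adjusted p = 6.26e-10, limma), and at d20 its difference was -0.07 (adjusted p = 0.432). *MSRB2* was higher at d4, d7, d15 and d20 by between 0.25 and 0.54. *MSRA*, which acts on the other stereoisomer, was higher at d1 (0.24) and d10 (0.53) and lower at d15 (-0.28), and at d7 its change was -0.18 (adjusted p = 0.065) with all libraries and -0.30 (adjusted p = 0.00249) without the third.

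*NOX4* was near the limit of detection at every timepoint. Untreated libraries had 7, 5 and 6 reads. Under TGFβ the counts were 3, 2 and 7 reads on day 1, 4, 5 and 1 on day 4, 3, 6 and 3 on day 7, 1, 4 and 6 on day 10, 2, 5 and 2 on day 15, and 2, 6 and 2 on day 20. The treated and untreated libraries overlapped on each day, and 10 of the 21 libraries were at or under 3 reads, the number used here as the floor of detection. Summed over libraries and divided by the size factors, the 18 treated libraries had 0.657 times the level of d0, with an exact 95% interval for counting error from 0.384 to 1.18. For single days this ratio lay between 0.543 at d15 and 0.752 at d1, and the highest upper bound was 1.65 at d1. Without the filter on low values the log2 fold change lay between -0.78 and -0.40 on the 6 days with adjusted p-values between 0.197 and 0.551 (limma). A 2-fold increase of *NOX4* RNA over d0 lay outside these intervals on every day, and a change within them was not detectable at this depth. *CYBA*, which encodes the p22phox chain that NOX4 needs, had 0 to 7 reads per library.

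Of the other NADPH oxidase genes, 10 passed the filter, and 4 to 6 were higher and 2 to 4 lower on each day, with 7 higher at d7 when the third library was left out. *NOX1*, *CYBB* (which encodes NOX2) and *NOX3* were below the filter, with 3 to 17, 0 to 7 and 0 reads per library. *NOX1* had 17, 9 and 12 reads at d0, and over the 18 treated libraries its level was 0.564 times that of d0 (exact 95% interval for counting error 0.388 to 0.836). *CYBB* had 4, 7 and 7 reads at d0, and its treated level was 0.246 times that of d0 (0.128 to 0.482), from 24 treated reads in all. *NOX5*, a calcium-activated oxidase, was 10.7, 14.4 and 16.8 at d0 and 77.4, 68.7 and 74.4 at d1, where the groups did not overlap (log2 fold change 2.34, standard error 0.21, adjusted p = 5e-09, limma). It remained higher on all 6 days, with the smallest change at d15 (1.00).

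*NOXA1*, an activator of NOX1, moved the other way, from 55.2, 67.0 and 47.5 at d0 to 4.98, 2.92 and 1.96 at d10, and was lower on all 6 days. Its smallest change was at d15 (-0.65, adjusted p = 0.0386, limma). *DUOX1*, a peroxide-producing oxidase of epithelia, was 922, 970.3 and 883 at d0, was higher at d7 (0.64) and d15 (0.50) and lower at d10 (-0.78) and d20 (-0.72). At d7 it was 1757, 1715 and 995, with the third library nearest to d0, and without it the change was 0.91. *DUOX2* was 10.7, 9.33 and 22.8 at d0, 65.3, 41.6 and 66.3 at d15 and 2.99, 2.92 and 3.91 at d10, the last with 3 to 4 reads per library. The small GTPases *RAC1* and *RAC2*, which switch on several oxidases, were higher on all 6 days, except that *RAC1* at d7 was -0.03 with equal totals.

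**Figure D4:**
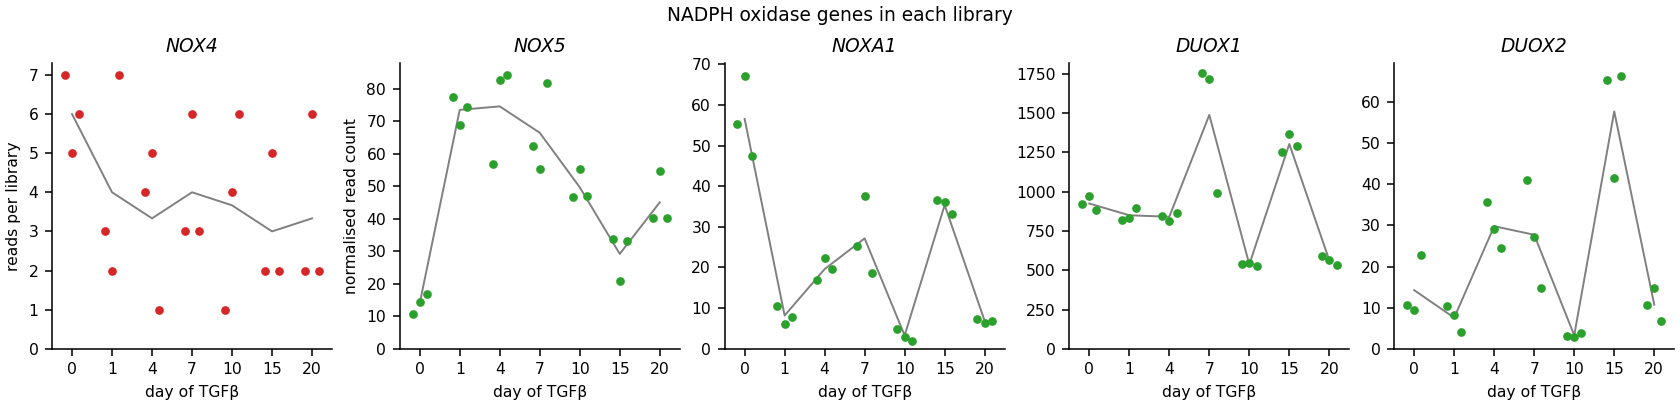
Reads per library of *NOX4* (red) and normalised read counts of *NOX5*, *NOXA1*, *DUOX1* and *DUOX2* (green) in each of the 21 libraries (points) with timepoint means (lines), against day of TGFβ (evenly spaced). *NOX4* had 5 to 7 reads at d0 and 1 to 7 in the treated libraries, *NOX5* lies above d0 on every treated day and *NOXA1* below it.

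Cell cycle genes varied between the treated days. Of 16 proliferation genes, 16 were lower at d4 and d15 and 15 at d7, with and without the third d7 library, while 9 were at d1 and 4 at both d10 and d20, and their median log2 fold change was -1.73 at d15 and -0.10 at d10. Their summed value was 78287, 80893.5 and 82020.0 at d0, 25459, 25095 and 25809 at d15, and 52950, 54405 and 70526 at d7, the last of these in the library that stood apart. Of the 9 members tested, 4 (*GCLM*, *HMOX1*, *NQO1* and *TXNRD1*) had means at d4, d7 and d15 that were all below those at d1, d10 and d20, and 2 (*GPX4* and *NFE2L2*) had means that were all above them. The other 3, *GCLC*, *MSRB3* and *SRXN1*, showed neither order. Over all 13343 genes tested, 24.8% lay below and 23.7% above in the same way, so these orders were common and the counts say little about the members. *TXN* and *PRDX1* were below on these days as well, and *TXNIP* was above. The part of proliferation in these results was not tested.

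**Figure D5:**
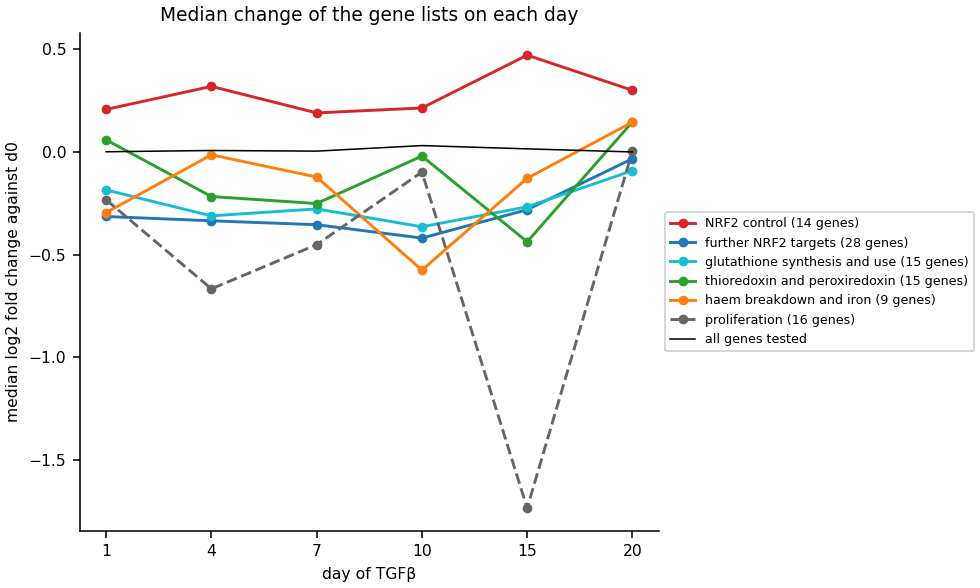
Median log2 fold change against d0 of 5 gene lists, without the members, and of 16 proliferation genes (dashed), on each treated day (evenly spaced). The NRF2 control genes lie above the median of all genes tested (black) on every day, the further targets below it, and the thioredoxin and proliferation lists have their lowest point at d15.

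Among the genes that changed at least 2-fold on some day, those whose log2 values ran closest to each member over the 21 libraries differed between members. For *MSRB3* they were *NNMT*, *THY1* and *FAM50A* (Pearson r = 0.98 for each), for *GCLC* *PDIK1L*, *FAM8A1* and *SLC27A2* (0.95, 0.94 and 0.93), and for *GCLM* *FUBP1*, *ANXA3* and *UCHL3* (0.95, 0.94 and 0.94). The nearest to *HMOX1* were *ANKRD28*, *ANXA6* and *ROR1* (0.93 for each), and the nearest to *TXNRD1* was *TFRC* (0.93), followed by *PSAT1* and *DDAH1* (0.89 for each). *NQO1* ran closest to *PLAT*, LOC100506233 and *ZNF512* (0.94, 0.93 and 0.93), *GPX4* to *RFNG*, *SAT2* and *LAMB2* (0.95 for each), *NFE2L2* to *HSD3B7*, *CX3CL1* and *TRAPPC9* (0.94, 0.93 and 0.91) and *SRXN1* to *C14orf132*, *APOD* and *CADM3* (0.89, 0.86 and 0.85). These values describe likeness of pattern only, since the libraries fall into 7 timepoints, share their size factors, and the neighbours were picked from 4061 (4060 where the member itself qualified) genes.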

How the data were processed

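The values deposited by the authors are a normalized signal for each gene symbol in each library, namely the read count over a library-wide size factor, given to 2 decimals. The submitters' notes name STAR 2.7, Salmon 1.4 and hg19 without a role, and no counting tool or test is given in the sources used here. The deposited table holds no coordinates. Whole reads, within 0.1 of an integer, were recovered for 100% of the values. Columns name the timepoint but carry no replicate number, and the study states biological triplicates; nothing else ties a library to a separate culture, so p-values measure the spread between these libraries. The 13343 genes whose mean value reached 10 were tested with limma 3.58.1 in R 4.3.3 on log2(value + 1), one mean per timepoint, eBayes with trend, Benjamini-Hochberg within each contrast. Fold changes on that scale understate changes of low genes. In a simulation of d20 against d0 (13184 genes, of which 199 had been changed) limma recovered 177 changed genes and called 7 others. Alternatives were a pseudocount of 10, no filter, equal totals, quantile normalization, only the 2 groups compared, edgeR 4.0.16 and DESeq2 1.42.0 on recovered reads, a 2-fold minimum and each library left out.

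The members and gene lists were chosen with earlier results of these data known. Genes named from a list are the 4 with the largest change past the threshold, all members, oxidases, reductases, *KEAP1* and *BACH1*, and genes that complete a count. The *GCLC* to *GCLM* ratio, the counting interval of *NOX4* and a few genes named beside the rule (*GSS*, *MAFG*, *CAT*, *SLC3A2*, *FTL*, *GPX8*, *RAC1*, *RAC2*, *NFE2L1*, *CREBBP*, *KRT5*, *KRT14*, *KRT18*, *TP63*, *CBR1*, *EPHX1*, *PGD* and *PIR*) were added after the values were seen. Some genes that this rule names are not reported here.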

Additional observations from a re-analysis of the deposited data

Results flagged for a closer look

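These genes were higher than at d0 on one treated day and lower on another, and the pair of days also differed when compared directly. Since the genes were chosen for changes in opposite directions, that difference follows from the choice and is given as a description; values are log2 differences between the first and second day named. Among the members, *GCLM* was 1.11 higher at d1 than at d15, *GPX4* 1.18 higher at d15 than at d1 and *SRXN1* 0.44 higher at d20 than at d4. Between d15 and d10 the difference was 4.86 for *TXNIP*, 2.38 for *SOD2*, 1.31 for *FTH1*, 2.66 for *GGT1* and 3.76 for *DUOX2*, and between d10 and d15 it was 1.89 for *PRDX1*, 1.64 for *NFE2L3* and 0.81 for *MSRA*. *TXN* was 1.15 and *HMOX2* 1.18 higher at d1 than at d15, while *FTL* was 1.13, *CREBBP* 0.68 and *NFE2L1* 0.63 higher at d15 than at d1. *TP63* was 0.90 higher at d7 than at d20. *SLC7A11* was 1.56 and *AIFM2* 1.79 higher at d20 than at d4, *GLRX*, glutaredoxin, was 1.74 higher at d20 than at d10, *DUOX1* was 1.42 higher at d7 than at d10 (1.69 without the third d7 library) and *KEAP1* 0.32 higher at d20 than at d1. The stress genes *ATF3* and *DDIT3* were 1.74 and 1.80 higher at d15 than at d10, the keratin *KRT17*, whose reads can be shared with close paralogs, was 3.81 and the endothelial marker *KDR* 6.10 higher at d15 than at d10, and *RRM2*, a subunit of ribonucleotide reductase, was 3.25 higher at d10 than at d15. At d10 *KDR* was 1.99, 3.89 and 2.93, near the floor of detection, so the size of its difference is uncertain.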

How the results depend on the processing

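No paired analysis was possible because no column says which replicate it holds. Leaving out one library at a time, the number of members higher was 3 to 3 at d1, d4, d7 and d10, 3 to 4 at d15 and 4 to 5 at d20, and the number lower was 6 to 6 at d1, 4 to 5 at d4, 3 to 5 at d7, 5 to 5 at d10 and d15 and 2 to 2 at d20. Requiring a 2-fold change left 1 member higher at d4, d7 and d15 and 2 at d20, and 1 lower at d1 and d10 and 0 at d4, d7, d15 and d20. With equal totals 2 members were higher and 3 lower at d20. That scaling moved the median change of all genes tested to between -0.20 and -0.14 on the log2 scale, and small increases shrank with it. It reversed *NQO1* (-0.102), *TXNRD1* (-0.164) and *GPX4* (-0.073) at d20, *SRXN1* (-0.022) and *FTH1* (-0.006) at d15, *HMOX2* at d7 (-0.040), *KEAP1* at d20 (-0.009), *GPX8* at d1 (-0.028) and d7 (-0.047), *RAC1* at d7 (-0.032), *TP63* at d1 (-0.047), *PRDX1* at d1 (-0.034), d10 (-0.010) and d20 (-0.050) and *TXN* at d20 (-0.042). Quantile normalization reversed *NQO1* (-0.110), *TXNRD1* (-0.099) and *GPX4* (-0.016) at d20, *FTH1* at d15 (-0.052), *PRDX1* at d1 (-0.064), d10 (-0.020) and d20 (-0.059), *TXN* at d10 (-0.014) and d20 (-0.046), *TP63* at d1 (-0.016), and *KRT14* at d1 (-0.653), d4 (-0.828), d7 (-0.396), d15 (-0.511) and d20 (-0.866). Leaving out one library, *TXNRD1* at d20 ranged from -0.005 to 0.067. Of 702 recomputed changes of members, 661 kept direction and call, 15 lost and 18 gained the call and 8 reversed. For other named genes only changes that had been called were recomputed. Of those 5234, 5095 kept direction and call, 116 lost the call and 23 reversed. *GCLC*, *HMOX1* and *MSRB3* kept direction and call on every day under every alternative run but the 2-fold minimum. Depth limits what can be said of *NOX4*, *CYBA* and *DUOX2*, of *NOXA1* and *KDR* at d10, of *CD14* at d20 and of *TEK* at d0.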
